A study of Rattus norvegicus with 19 samples.

Results

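Immediate early genes were examined in 19 Illumina arrays of rat trigeminal nerve and of tumours that arose in it. The 10 genes considered were Fos, Fosb, Jun, Junb, Egr1, Ier2, Zfp36, Dusp1, Atf3 and Btg2, each taken as the probes that carry its symbol. 8 of the 10 had 1 probe each and were measured among 11796 features. Fosb and Btg2 had no probe under their symbol and are left out of what follows. 7 of the 8 were detected on 19 arrays, and Atf3 on 16 of them: 9 of 12 tumours, the microtumour and 6 of 6 nerve samples.

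The tested tissue was malignant peripheral nerve sheath tumour (MPNST), with 12 arrays of 1 tumour each from adult rats that had received N-ethyl-N-nitrosourea (ENU), an alkylating mutagen, at 80 µg per g on postnatal day 1. 7 of these rats were F1-hybrid animals of the strains BDIV and BDIX, 2 were BDIX, 2 were BDIV and 1 was of the congenic strain BDIX.BDIV-Mss4a. 6 were female and 6 were male. A microtumour from an ENU-treated adult male of the congenic strain was hybridized once. Normal trigeminal nerve was represented by 6 RNA pools from untreated rats of 85 days, 1 male and 1 female pool of each of the congenic, BDIX and BDIV strains, numbered 1 and 2, 3 and 4, and 5 and 6 in that order. No nerve pool was of the F1-hybrid strain. Tumours thus differed from nerve in ENU exposure, age and pooling as well as in tissue, and these cannot be told apart. The labels' protocol text names ENU for the nerve samples too, while their treatment tag reads untreated. The labels do not say how many animals a pool held, and the p-values measure only the spread between these arrays.

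Immediate early genes are transcribed within minutes of a stimulus, without new protein synthesis, from factors that are already in the cell. Serum response factor with its ternary complex partners, bound at CArG boxes, and CREB, bound at the cyclic AMP response element (CRE), pass signals of the MAP kinases and of cyclic AMP to them. Their transcripts are short-lived, and the products include both transcription factors, such as the AP-1 dimers of Fos and Jun proteins, and brakes, such as the phosphatase Dusp1 and the mRNA decay factor Zfp36. Because excision, ischaemia and dissociation of a tissue also induce them, their co-variation between samples is commonly read as a trace of handling.

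Values are log2 intensities after background correction and quantile normalization, in which a level near 7.3 is close to the array's background. Differences are MPNST minus nerve on this scale, tested with limma, and a change was called at a Benjamini-Hochberg adjusted p under 0.05 over all features. The arrays detected 44.1% to 54.1% of probes. They fell into 2 ranges by the 25th percentile of the raw signal: 80.4 to 94.6 on 11 high-background arrays, which were MPNST 1 to 8 and 10 with nerve pools 1 and 2, and 59.0 to 67.5 on 8 low-background arrays, which were MPNST 9, 11 and 12, the microtumour and nerve pools 3 to 6. The ranges cross tissue and were uneven over strains, of which only BDIV lay wholly in 1 range. Both BDIX tumours were in the high range, and both BDIV tumours and the BDIX and BDIV pools in the low one. The congenic MPNST 6 and pools were high and the congenic microtumour low, and the F1-hybrid tumours were high except MPNST 9. Nerve pools 5 and 6 correlated at 0.997 over all features, against 0.928 to 0.992 for the other pairs of pools, and their columns are exchanged between the raw and the processed deposited tables. Nerve carried its cell type markers. Of 12 measured sensory neuron markers 11 fell in MPNST, and their summed level was 1993 to 14444 in MPNST, 51184 in the microtumour and 64492 to 122333 in nerve. The neuronal genes Tac1, Stmn2 and Snap25 differed by -5.04, -4.88 and -4.87. All 6 measured markers of myelinating Schwann cells fell, among them Mal (-5.69), Mbp (-4.37) and Cldn19 (-3.66), with sums of 12359 to 29897 in MPNST, 42014 in the microtumour and 39297 to 91754 in nerve. Of 6 Schwann lineage markers Sox10 (1.11 ± 0.27) and Erbb3 (1.36 ± 0.27, log2 difference ± SE) rose and S100b fell. The array measures tissue RNA, so more cells that carry a transcript cannot be told apart from more transcript per cell.

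5 of the 8 measured genes rose in MPNST, Ier2, Zfp36, Fos, Egr1 and Junb, and 1 fell, Dusp1. Jun and Atf3 did not pass the test. Of all features 45.4% were called in this comparison, 24.6% higher and 20.8% lower, and 6 of 8 genes is 75%. That share did not stay above the background of its own comparison in every setting. Within the high-background arrays 2 of 8 genes passed (25%, against 31.0% of features), within the low-background arrays 2 of 8 (25%, against 18.9%) and with sex and strain as covariates 3 of 8 (37.5%, against 39.0%). The calls over all features leaned upwards (54.2% of calls higher) under quantile normalization and downwards (31.2% higher) when arrays were only scaled to a common median. The median difference of the 8 genes was 0.76, against 0.02 over all features. Their order by size of the rise ran from Ier2 (2.70-fold) through Zfp36 (2.68-fold), Fos (1.81-fold) and Egr1 (1.72-fold) to Junb (1.68-fold), and Dusp1 was 2.19-fold lower. The nerve levels of Ier2 and Fos lay near background, so their folds are less certain, and the order depended on the processing. With the authors' values the log2 differences were 2.30 for Ier2, 2.25 for Fos, 1.27 for Zfp36, 0.92 for Egr1 and 0.74 for Junb.

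**Figure D1:**
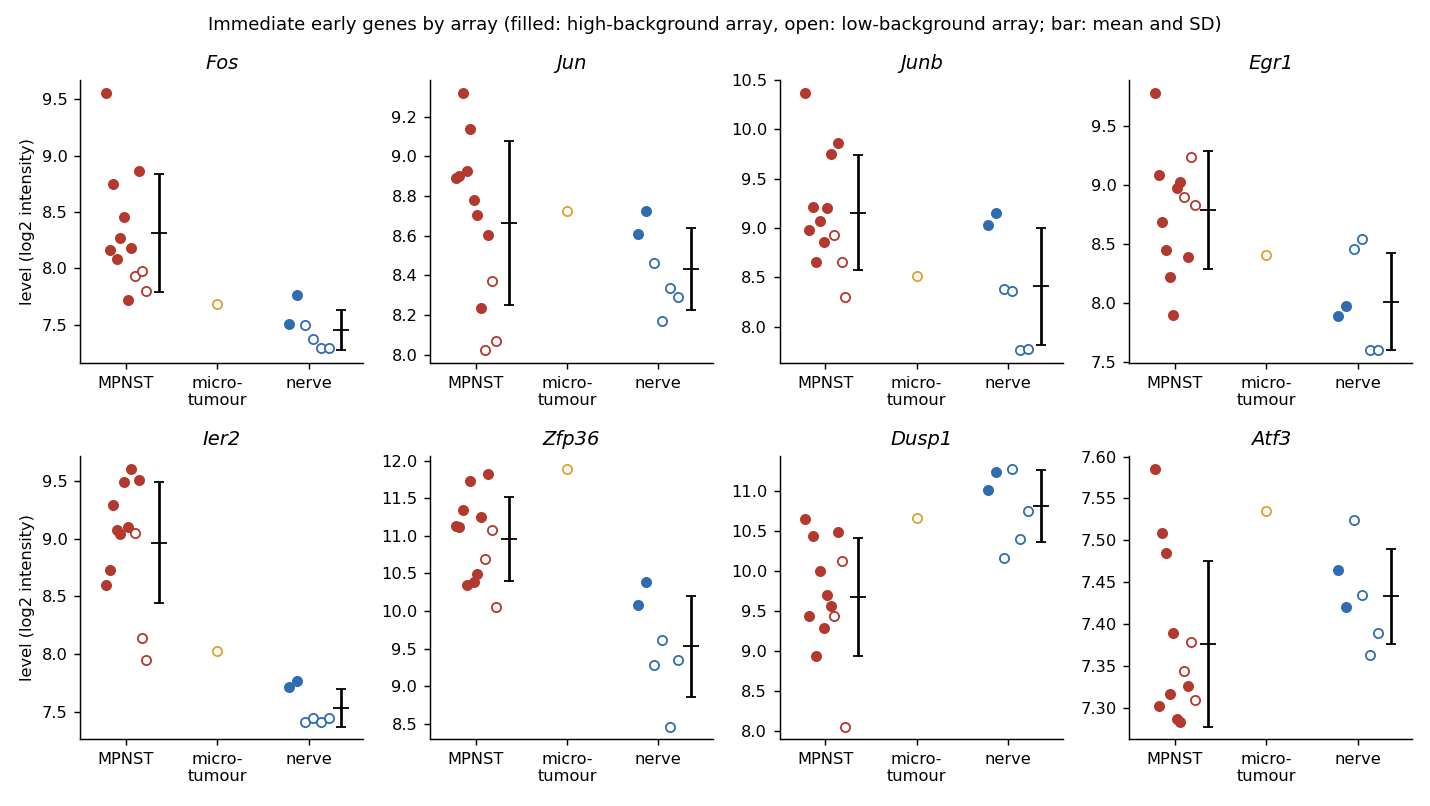
Level of each measured immediate early gene (log2 intensity, y axis; each panel has its own range) on 12 MPNST, 1 microtumour and 6 nerve arrays. Filled points are high-background arrays and open points low-background arrays, and the bars give mean and SD. Every Ier2 value of an MPNST array lies above every nerve value, while the groups overlap for the other 7 genes.

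Promoters are shown for the 4 measured genes in which a CArG box or a CRE was found. Each is given as the 150 bases before the start of transcription in RefSeq (GRCr8), 5′ to 3′ on the gene's strand. The capitals mark a CArG box in Egr1 and Zfp36 and the full CRE, TGACGTCA, in Ier2 and Dusp1. The 4 windows are chr18:26736928-26737077 on the plus strand for Egr1, chr1:92799109-92799258 on the minus strand for Zfp36, chr19:40399223-40399372 on the plus strand for Ier2 and chr10:17184703-17184852 on the plus strand for Dusp1.
Egr1: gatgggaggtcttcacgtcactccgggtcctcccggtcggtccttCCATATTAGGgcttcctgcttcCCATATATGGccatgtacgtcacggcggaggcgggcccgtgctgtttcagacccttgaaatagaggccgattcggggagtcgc
Zfp36: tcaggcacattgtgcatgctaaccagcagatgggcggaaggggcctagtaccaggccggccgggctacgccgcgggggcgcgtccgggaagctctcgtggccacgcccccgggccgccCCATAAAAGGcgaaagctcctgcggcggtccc
Ier2: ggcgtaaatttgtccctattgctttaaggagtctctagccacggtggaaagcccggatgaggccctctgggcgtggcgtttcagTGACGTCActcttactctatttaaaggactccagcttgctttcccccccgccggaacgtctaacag
Dusp1: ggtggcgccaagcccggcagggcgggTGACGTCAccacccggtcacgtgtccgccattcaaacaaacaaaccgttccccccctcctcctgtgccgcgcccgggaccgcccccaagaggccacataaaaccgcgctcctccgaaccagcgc

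The search covered the 300 bases from 250 before to 50 after the start, which the table held for 7 of the 10 listed genes: Fosb, Junb, Egr1, Ier2, Zfp36, Dusp1 and Btg2. Each motif reads the same on both strands, and no match overlapped another. CArG boxes began 105 and 83 bases upstream of the start in Egr1 and 32 bases upstream in Zfp36. The CRE began 66 bases upstream in Ier2, 124 in Dusp1 and 201 in Btg2, which had no probe. A CRE was held by 1.83% of 33469 rat promoter windows of the same length and a CArG box by 1.64%. The AP-1 site TGANTCA was in 7.33% of those windows and in 0 of the 7. Junb, which rose, and Fosb, which had no probe, held none of these motifs, and Fos, Jun and Atf3 had no window. Among the 4 genes shown, the CRE stood in Ier2, which rose, and in Dusp1, which fell, and CArG boxes stood in Egr1 and Zfp36, which both rose. A match is a run of letters in this window and does not show binding.

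Of the AP-1 subunits, Fos and Junb were called and Jun was not, and their differences were not tested against each other. Fos, which pairs with Jun proteins in AP-1 dimers, had a lowest level of 7.72 (MPNST 7), a median of 8.17 and a highest of 9.56 (MPNST 1) in MPNST, 7.69 in the microtumour, and 7.29, 7.43 and 7.77 for lowest, median and highest in nerve. 11 of 12 tumours lay above every pool, and MPNST 7 lay within the pools. The lowest pools were close to background. Fos averaged 8.31 ± 0.52 in MPNST (SD, n = 12) and 7.45 ± 0.18 in nerve (SD, n = 6), a difference of 0.86 ± 0.22 (SE; limma adjusted p = 0.00355). Within the high-background arrays the difference was 0.81 (adjusted p = 0.135), with only 2 pools to compare, and within the low-background arrays it was 0.54 (adjusted p = 0.00729).

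Junb, a subunit that forms weaker activating dimers than Jun, ranged from 8.30 (MPNST 12) over a median of 9.03 to 10.37 (MPNST 1) in MPNST, stood at 8.52 in the microtumour, and ranged from 7.76 over a median of 8.37 to 9.15 in nerve. The groups overlapped, with 5 of 12 tumours above every pool and 7 within their range. The difference was 0.74 ± 0.28 (limma adjusted p = 0.041). It depended on the background range and on single arrays. With that range as a block it was 0.40 (adjusted p = 0.186), within the high-background arrays 0.24 (adjusted p = 0.69) and within the low-background arrays 0.56 (adjusted p = 0.146). The call was also lost without MPNST 3, 5, 7, 8 or 10 and without nerve pool 3, 4, 5 or 6, each left out alone.

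Jun, the subunit that can form AP-1 with itself, spread widely in tumours without a shift that passed the test. It ran from 8.02 (MPNST 9) over a median of 8.74 to 9.32 (MPNST 3) in MPNST, stood at 8.72 in the microtumour and ran from 8.17 over 8.40 to 8.72 in nerve. 6 tumours lay above every pool and 2 below. The difference was 0.23 ± 0.18, with a 95% interval of -0.14 to 0.60 (limma adjusted p = 0.295), and its sign depended on the setting: 0.17 within the high-background arrays, -0.16 within the low-background arrays and -0.13 with median scaling.

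Atf3, a stress-induced bZIP factor that marks injured sensory neurons, was close to background throughout. Its level was 7.28 to 7.59 in MPNST, 7.54 in the microtumour and 7.36 to 7.52 in nerve. The difference was -0.06 ± 0.04 (limma adjusted p = 0.307). At this signal the size of a change in Atf3 could not be measured.

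Egr1, a zinc finger factor that serum response factor drives through CArG boxes such as those shown above, ran from 7.90 (MPNST 6) over a median of 8.86 to 9.78 (MPNST 1) in MPNST and stood at 8.41 in the microtumour. In nerve it ran from 7.60 over 7.93 to 8.54. 8 of 12 tumours lay above every pool. Egr1 averaged 8.79 ± 0.50 in MPNST (SD, n = 12) and 8.01 ± 0.41 in nerve (SD, n = 6), a difference of 0.78 ± 0.23 (limma adjusted p = 0.0105). The size was alike within the high-background arrays (0.79, adjusted p = 0.159) and the low-background arrays (0.94, adjusted p = 0.0814), though neither passed the test. With median scaling the difference was 0.53 (adjusted p = 0.107).

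Ier2, a nuclear protein induced with the AP-1 genes, separated the tissues fully. Its level was 7.95 (MPNST 12), a median of 9.06 and 9.61 (MPNST 8) in MPNST, 8.03 in the microtumour, and 7.41, 7.45 and 7.77 for lowest, median and highest in nerve. All 12 tumours and the microtumour lay above every pool. 8.38% of features had every tumour above every pool, and Ier2 was the one such gene of the 8. Ier2 averaged 8.96 ± 0.53 in MPNST (SD, n = 12) and 7.53 ± 0.16 in nerve (SD, n = 6), a difference of 1.43 ± 0.22 (limma adjusted p = 4.36e-05). It was 1.42 within the high-background arrays (adjusted p = 0.00139) and 0.95 within the low-background arrays (adjusted p = 0.0574). The nerve pools lay near background, at a median of 7.45, and the difference was 2.30 with the authors' values.

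Of the genes that limit the response, Zfp36 and Dusp1 moved in opposite directions. Zfp36, also called tristetraprolin, binds AU-rich elements and speeds decay of cytokine and immediate early mRNAs. It ran from 10.05 (MPNST 12) over a median of 11.10 to 11.82 (MPNST 10) in MPNST, and its level in the microtumour was 11.89. In nerve it ran from 8.46 over 9.49 to 10.39. 10 of 12 tumours lay above every pool, and MPNST 4 and 12, at 10.35 and 10.05, lay below nerve pool 2. Zfp36 averaged 10.95 ± 0.56 in MPNST (SD, n = 12) and 9.53 ± 0.67 in nerve (SD, n = 6), a difference of 1.42 ± 0.29 (limma adjusted p = 0.000681). The difference was 0.83 within the high-background arrays (adjusted p = 0.134) and 1.43 within the low-background arrays (adjusted p = 0.0445).

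Dusp1, the dual-specificity phosphatase that switches off p38, JNK and ERK in the nucleus, was lower in tumours. It ran from 8.06 (MPNST 12) over a median of 9.63 to 10.65 (MPNST 1) in MPNST, stood at 10.66 in the microtumour, and ran from 10.17 over 10.88 to 11.27 in nerve. 9 of 12 tumours lay below every pool, while MPNST 1, 3 and 10 lay among the pools; 8.59% of features had every tumour below every pool. Dusp1 averaged 9.68 ± 0.73 in MPNST (SD, n = 12) and 10.81 ± 0.45 in nerve (SD, n = 6), a difference of -1.13 ± 0.32 (limma adjusted p = 0.00774). It was -1.29 within the high-background arrays (adjusted p = 0.0375) and -1.44 within the low-background arrays (adjusted p = 0.114). Without the congenic pools it was -0.97 (adjusted p = 0.0505).

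The microtumour was 1 array, assumed in the fit to vary like the other groups. Against nerve, Zfp36 rose by 2.36 ± 0.63 or 5.12-fold (limma adjusted p = 0.0499), the 1 call among 8 genes where 3.04% of all features were called, 1.83% higher and 1.21% lower. That call was at the edge of the threshold, and the adjusted p was between 0.0323 and 0.0703 when single arrays were left out. Within the low-background arrays, to which the microtumour belongs, the difference was 2.71 (adjusted p = 0.0911), and with the background range as a block 2.58 (adjusted p = 0.0125). Against MPNST, 0 of 8 genes were called where 2.72% of features were, and 0 passed at an unadjusted p under 0.05. The largest differences were 0.99 for Dusp1 (95% interval -0.41 to 2.39), -0.94 for Ier2 (-1.88 to 0.01) and 0.93 for Zfp36 (-0.34 to 2.21). The scaling shifted both comparisons over all features: against nerve 60.2% of calls were higher as reported, 86.8% with median scaling and 76.1% with the authors' values, and against MPNST 63.2%, 97.0% and 80.3%. The microtumour's sensory neuron sum given above lay between MPNST and nerve, and the part of retained nerve in its levels was not tested.

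**Figure D2:**
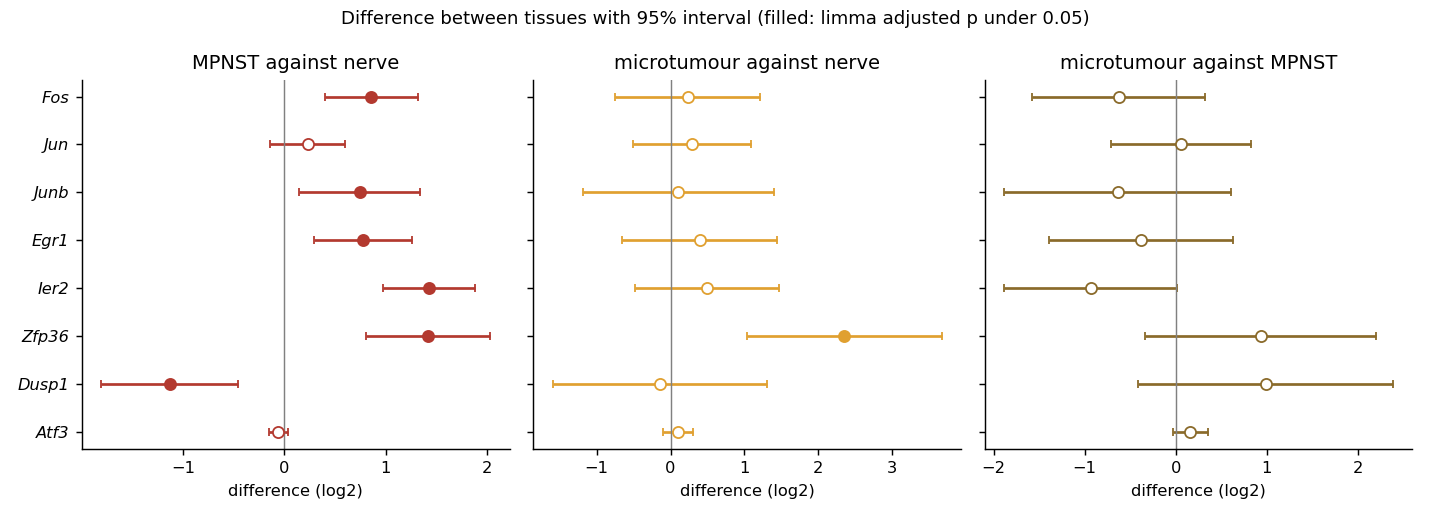
Difference in level (log2, x axis) with its 95% interval for the 8 genes, in MPNST against nerve, microtumour against nerve and microtumour against MPNST. Filled points passed the limma test at an adjusted p under 0.05: 6 genes in the first panel, Zfp36 in the second and none in the third.

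Between tumours, most of the genes were among the more variable features of the array. The SD over 12 MPNST lay at the 96.2nd percentile of all features for Dusp1, the 92.5th for Junb, the 91.5th for Zfp36, the 89.9th for Fos, the 88.7th for Egr1 and the 82.5th for Jun, with Ier2 just above Fos. Atf3, close to background, was at the 37.5th. These percentiles are over all features, those near background included, and were not matched for level. High values gathered in a few tumours. MPNST 1, an F1-hybrid female, was the highest of 12 for 5 genes (Fos, Junb, Egr1, Dusp1 and Atf3), and MPNST 1, 3 and 10 were each among the top 3 for 5 genes. MPNST 12, a BDIV male, was the lowest for 4 genes (Junb, Ier2, Zfp36 and Dusp1) and among the bottom 3 for 6. The summed level of 5 measured skeletal muscle markers was 19323 in MPNST 2, 10648 in MPNST 10, 4526 in MPNST 3 and 821 to 1243 in the other 9 MPNST, 859 in the microtumour and 830 to 1253 in nerve. Of these markers 0 passed the test in MPNST against nerve, and the part of muscle in the levels of MPNST 3 and 10 was not tested.

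Pairs of genes were correlated over the 12 tumours, which leaves out the difference between the MPNST and nerve groups. Tissue content still varied between tumours, with sensory neuron sums of 1993 to 14444 and skeletal muscle sums of 821 to 19323. Its part in the correlations was not tested. Of 28 pairs 24 had a positive Pearson's r, with a median of 0.36 against -0.0044 over all pairs of features. 2 pairs passed a two-sided permutation test adjusted over the 28. Zfp36 and Dusp1 had r = 0.79 (permutation p = 0.00203, adjusted 0.0459) and Spearman's rho of 0.78 (permutation, adjusted p = 0.0379). Fos and Junb had r = 0.78 (permutation p = 0.00328, adjusted 0.0459) and rho of 0.65 (permutation, adjusted p = 0.143). Without the 2 tumours farthest from the median of the first gene, r was 0.62 for Zfp36 and Dusp1 and 0.34 for Fos and Junb, over a narrower range of levels. The Pearson value of Fos and Junb over 12 tumours thus rests in part on the 2 with the most extreme Fos. By rank, Junb also paired with Dusp1 (rho of 0.79) and with Zfp36 (rho of 0.78), both with an adjusted permutation p of 0.0379. Within the 9 high-background tumours r was 0.70 for Zfp36 and Dusp1 and 0.71 for Fos and Junb, and 0 of 28 pairs passed. The 3 low-background tumours are too few for a value. Both calls were also lost without MPNST 2, 3, 4, 5, 9, 10 or 12, each left out alone, and that of Fos and Junb without MPNST 1 or 11.

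**Figure D3:**
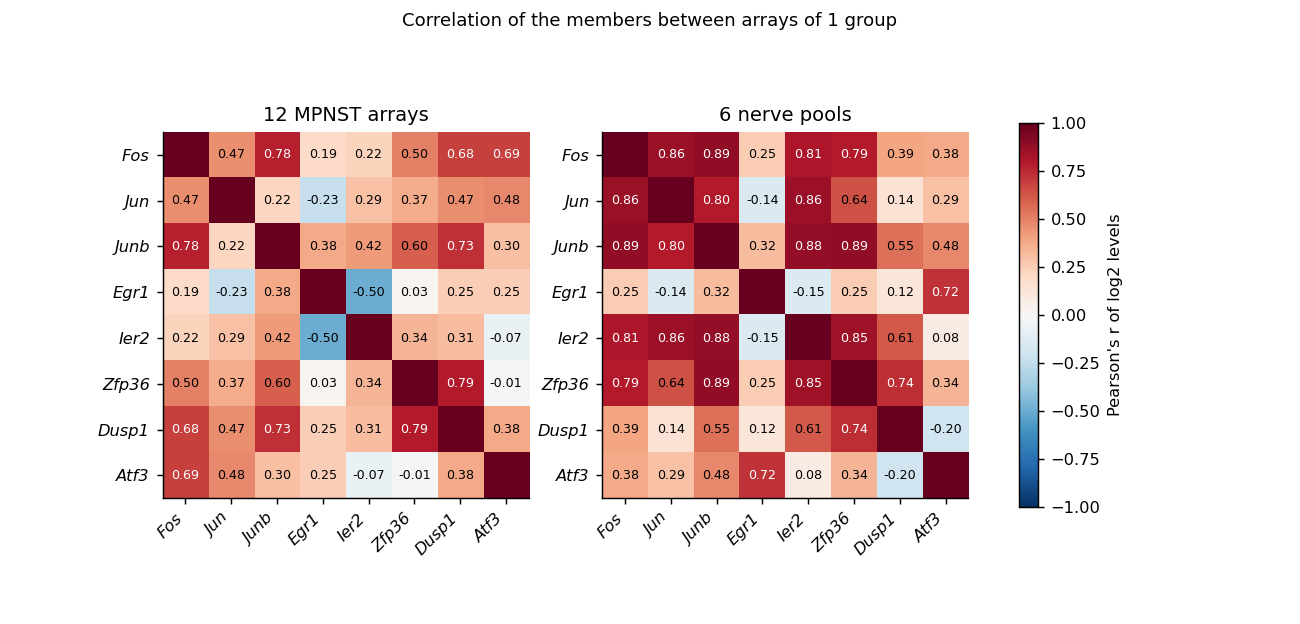
Pearson's r between levels of each pair of the 8 genes over 12 MPNST arrays and over 6 nerve pools (colour scale from -1 to 1). In MPNST the highest values are those of Zfp36 with Dusp1 (0.79) and Fos with Junb (0.78), and the lowest that of Egr1 with Ier2 (-0.50).

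The set did not vary as a single unit. Dusp1 (r = 0.84), Fos (0.82) and Junb (0.79) followed the mean of the other 7 genes most closely over the 12 tumours, and ranked 28th, 37th and 54th of 11789 features in that. Zfp36 ranked 847th, Jun 1429th, Atf3 1778th and Ier2 3428th. Egr1 ranked 5137th (r = 0.07), and its correlation with Ier2 was -0.50 (permutation p = 0.0997, adjusted 0.323). These ranks are descriptions, since the tumours share arrays, depth and background range with every other feature. Dusp1 was the 16th of 11795 features by correlation with Zfp36, and Zfp36 the 19th with Dusp1.

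**Figure D4:**
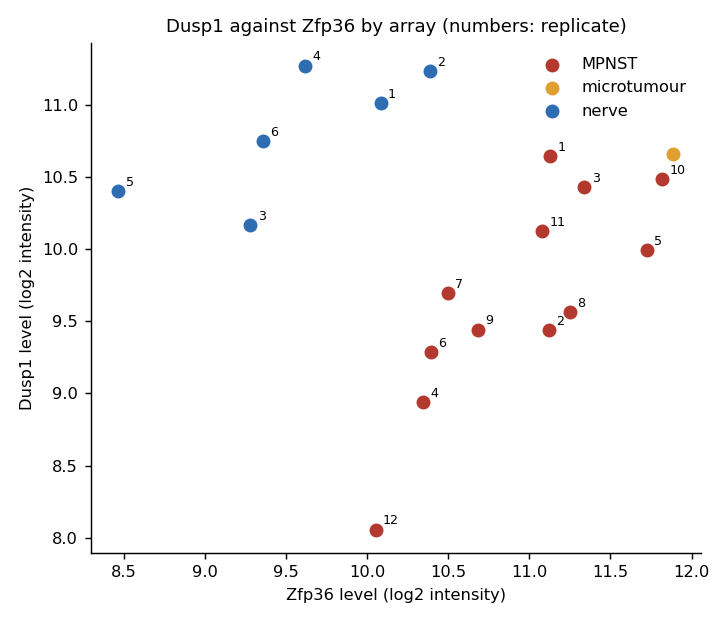
Level of Dusp1 (log2 intensity, y axis) against that of Zfp36 (log2 intensity, x axis) on 19 arrays, with replicate numbers beside the points. MPNST run from MPNST 12 at the lower left to MPNST 1, 3 and 10, and the microtumour lies beside MPNST 10. The nerve pools lie apart, at higher Dusp1 relative to Zfp36, but overlap MPNST on each axis taken alone.

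Over the 6 nerve pools 25 of 28 pairs had a positive r, with a median of 0.52. The exact permutation test passed 0 pairs after adjustment and 7 at an unadjusted p under 0.05. The smallest p that 6 pools allow, 0.00278, was reached by Fos and Junb (r = 0.89, exact permutation, adjusted p = 0.0778). Pools 1 and 2, the congenic and high-background ones, were the 2 highest of 6 for Fos, Jun, Junb, Ier2 and Zfp36. Egr1 was instead highest in the BDIX pools, at 8.46 and 8.54, against 7.89 and 7.98 in the congenic and 7.60 and 7.60 in the BDIV pools. Strain and background range cannot be told apart for the congenic pools.

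The background range itself moved with part of the set. With tissue held constant, high-background arrays had higher Jun by 0.56 (limma adjusted p = 0.00558), Junb by 0.82 (adjusted p = 0.0159) and Ier2 by 0.61 (adjusted p = 0.0206). These are 3 of 8 genes, where 26.3% of features were called and 12.9% higher. Fos (0.45), Zfp36 (0.68), Dusp1 (0.57) and Egr1 (-0.21) did not pass. With median scaling none of the 3 passed (0.20, 0.48 and 0.26). Over all features 49.1% of calls were higher under quantile normalization, 12.1% with median scaling and 22.1% with the authors' values. Whether the range reflects hybridization, tissue handling or strain was not tested.

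Neither sex nor strain gave a call among the tumours. For female against male MPNST, with strain held constant, 0 of 8 genes and 0 of 11796 features were called with limma (0 genes and 859 features at an unadjusted p under 0.05). The largest strain-adjusted difference was 0.98 for Dusp1 (95% interval -0.02 to 1.97). Its plain means lay closer, at 9.90 ± 0.66 in females and 9.45 ± 0.79 in males (SD, n = 6 each). Between female and male nerve pools 0 of 8 genes and 0 of 11796 features were called (503 features at an unadjusted p under 0.05). Zfp36 (0.51) alone of the 8 had an unadjusted limma p under 0.05 (p = 0.0444). That difference depended on which of the exchanged columns of nerve pools 5 and 6 is the female: it was -0.08 with their signals exchanged and -0.05 with the authors' values. The sex differences of the 2 tissues also gave 0 calls when set against each other. Over the 3 tumour strains 0 of 8 genes were called where 2.66% of features were. Ier2 came nearest (limma F test, adjusted p = 0.0821), with means of 9.09 in 7 F1-hybrid, 9.18 in 2 BDIX and 8.04 in 2 BDIV tumours. The BDIV tumours were low-background arrays and the BDIX tumours high-background ones.

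Nerve differed between strains for Egr1 and Junb. BDIV pools were lower than BDIX pools by 0.90 for Egr1 (limma adjusted p = 0.0172) and by 0.60 for Junb, at 7.76 and 7.77 in BDIV and 8.38 and 8.36 in BDIX (adjusted p = 0.0236). These are 2 of 8 genes, where 13.4% of features were called, 6.51% higher and 6.89% lower. Of the calls over all features 48.6% were higher, against 90.7% with median scaling. All 4 pools were low-background arrays. Marker sums moved with strain too. Red blood cell genes summed to 12722 and 18264 in BDIV and to 57961 and 66698 in BDIX pools, and myelinating Schwann cell markers to 39297 and 47302 in BDIV and to 68063 and 91754 in BDIX pools. Sensory neuron markers summed to 118418 and 122333 in BDIV and to 64492 and 82113 in BDIX pools. The part of these cells in the levels of Egr1 and Junb was not tested. The fit had 2 residual degrees of freedom, and leaving out pool 1, 2, 5 or 6 left 0 calls among the 8 genes. With tumours set against nerve of their own strain, Egr1 differed by 1.43 in BDIV and by 0.07 in BDIX. Ier2 differed by 0.61 in BDIV and by 1.75 in BDIX, and Jun by -0.09 in BDIV and by 0.81 in BDIX. The difference between the strains' tumour changes was 1.36 for Egr1 (limma adjusted p = 0.115), -1.14 for Ier2 (adjusted p = 0.0679) and -0.90 for Jun (adjusted p = 0.201), and 0 of 8 genes were called where 12.9% of features were (5.46% higher and 7.42% lower). The share of those calls that were higher was 42.4%, against 22.2% with median scaling and 68.3% with the authors' values.

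In a wider list of immediate early genes, 36 of 50 were measured, and 11 rose and 5 fell in MPNST. That is 44.4% called, near the 45.4% of all features, with a median difference of 0.03, near the 0.02 of all features. 10 of the 36 were not detected on every tumour, and their differences near background are included in that median. Ccn2, a matricellular target of YAP and TGF-beta signalling, rose by 2.92 ± 0.32 (limma adjusted p = 1.40e-06), the small GTPase Rhob by 1.80 ± 0.29 and the zinc finger factor Klf4 by 1.32 ± 0.35. Egr2, the relative of Egr1 that drives Schwann cell myelination, fell by 3.04 on the log2 scale (SE 0.34, limma adjusted p = 1.58e-06). Errfi1, a feedback inhibitor of the EGF receptor, fell by 1.37 and the serum-induced kinase Sgk1 by 0.79. The orphan receptors Nr4a1, Nr4a2 and Nr4a3, the cyclooxygenase Ptgs2 and Arc, textbook members of the class, differed by -0.04 to 0.08 and did not pass. They lay near background, at 7.28 (Nr4a1) to 7.51 (Nr4a2) on average in MPNST, so the size of a change could not be measured for them. Zfp36l1 (0.95) and Zfp36l2 (0.44), paralogs of Zfp36, rose. Errors behind ± here are SE.

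**Figure D5:**
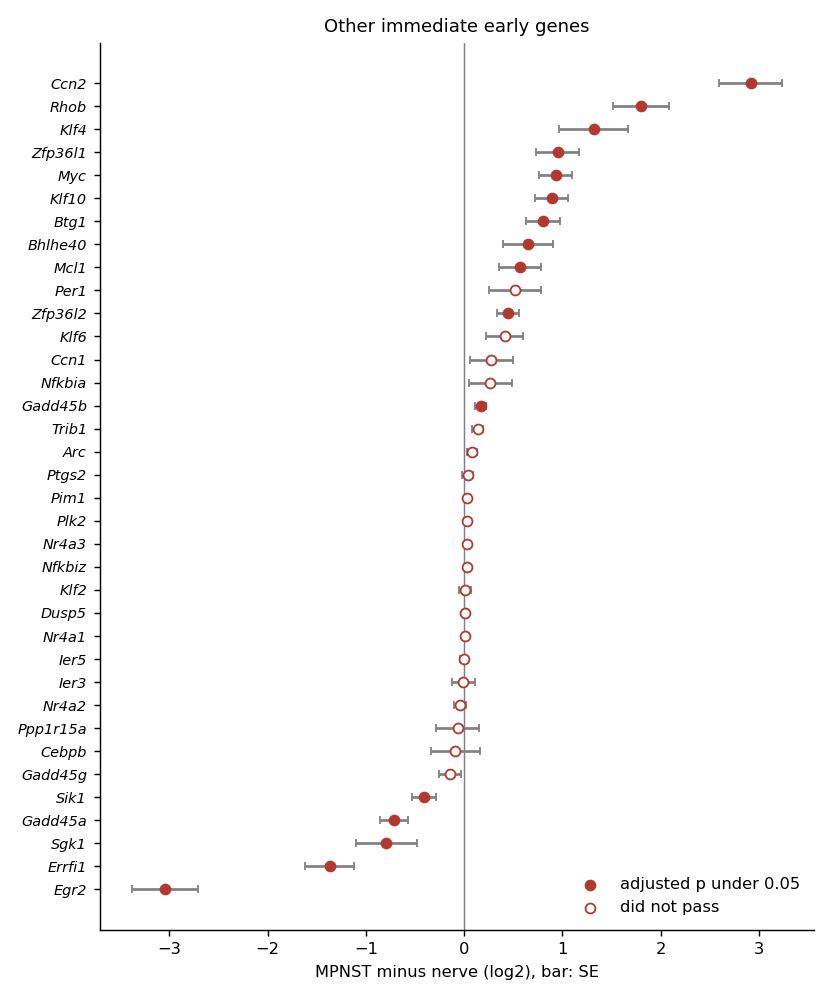
MPNST minus nerve (log2, x axis) with its SE for 36 other immediate early genes, ordered by size. Filled points passed the limma test at an adjusted p under 0.05; 11 lie above 0 and 5 below, with Ccn2 at 2.92 and Egr2 at -3.04.

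Of the regulators upstream, 16 of 23 were measured, and 6 rose and 2 fell, or 50% called, again near the 45.4% of all features. The stress kinase Mapk14 (p38) rose by 0.61, the cyclic AMP-responsive factor Crem by 0.59 and serum response factor, Srf, by 0.58. Map2k4, the kinase upstream of JNK, fell by 1.17. Mapk10, the neuronal JNK, also fell, but was detected on 1 of 12 tumours, at a mean of 7.25 in MPNST and 7.61 in nerve, so the size of its fall is not given. Of heat shock genes, another class that tissue stress induces, 9 of 14 were measured, and 6 fell and 1, Dnajb1 (0.53), rose. Hspb8 fell by 2.92, Hspa4l by 2.30 and Hsp90aa1 by 1.78. The summed level of the list was 20508 to 27794 in MPNST, 34078 in the microtumour and 37171 to 49178 in nerve. The part of cell content, such as the loss of neuronal and myelinating Schwann cell markers in MPNST, in these levels was not tested.

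Macrophage and endothelial markers moved with the set over the tumours, and markers of other cell types less or not at all. Of 10 measured macrophage markers 6 rose and 0 fell in MPNST, led by the complement genes C1qc (2.41), C1qb (2.32) and C1qa (2.08), while Ptprc, Itgam and Cd163 were near background and did not pass. Their summed level was 10812 to 34313 in MPNST, 16068 in the microtumour and 2930 to 8060 in nerve. Over the tumours that sum was highest in MPNST 1, the highest tumour for 5 of the 8 genes, and lowest in MPNST 12, the lowest for 4. The mean log2 level of these markers had r = 0.85 with the mean of the 8 genes over 12 MPNST. That value is a description, over arrays that share 1 normalization, and it was not computed without MPNST 1 or 12. With each gene centred and scaled to its SD over the tumours, the mean of the 8 genes was highest in MPNST 1 (1.26) and lowest in MPNST 12 (-1.28). It was 0.56 in MPNST 10 and -0.25 in MPNST 11, where the macrophage sums were 16303 and 20198. Of 7 measured endothelial markers 1, Plvap (1.18), rose and 4 fell, led by Cldn5 (-1.49), Vwf (-1.40) and Emcn (-1.12). Their summed levels were 2770 to 7625 in MPNST, 4616 in the microtumour and 5427 to 10253 in nerve, with MPNST 1 again the highest tumour. Their mean log2 level had r = 0.85 with the mean of the 8 genes over the same tumours, likewise not computed without MPNST 1 or 12. The corresponding r was 0.63 for the other immediate early genes and -0.13 for the heat shock genes. Among other cell type lists it was 0.43 for T and B cells, 0.36 for fibroblasts, 0.25 for skeletal muscle and 0.19 for red blood cells. For sensory neurons it was -0.03, for the Schwann lineage -0.09 and for myelinating Schwann cells -0.29. The part of these cell types in the levels of the 8 genes was not tested. Of 8 fibroblast markers Dpt (0.73) rose and 4 fell, led by Mfap5 (-2.89), Gsn (-1.75) and Dcn (-1.53). Of 4 red blood cell genes Hbb-b1 (-2.65), Hbb (-2.10) and Hba-a1 (-2.04) fell, globin genes whose near-identical copies the probes may not tell apart. T and B cell markers were near background, with summed levels of 614 to 672 in MPNST, 636 in the microtumour and 614 to 631 in nerve.

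The 5 named features outside the set that most resembled its mean over the 12 MPNST were Clec4a3 (r = 0.93), a C-type lectin gene, Samd13 (0.91), the cation channel gene Trpv2 (0.90), the heparanase gene Hpse (0.90) and the transcription factor gene Stat3 (0.88). Clec4a3 (0.78) and Stat3 (0.87) were also higher in MPNST than in nerve, and Trpv2 (-0.39) and Hpse (-0.24) lower. Hpse lay near background in MPNST, at 7.23 to 7.36, and Trpv2 (7.38 to 7.67) and Samd13 (7.33 to 7.98) were also low there. Samd13 differed by 0.01 and did not pass. In nerve the correlation with the same mean kept its sign for Clec4a3 (0.82) and Samd13 (0.58) and was negative for Trpv2 (-0.94), Hpse (-0.60) and Stat3 (-0.23), over 6 pools.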

How the data were processed

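Total RNA was hybridized to Illumina rat expression arrays. Per the file headers, the raw deposited table holds probe intensities and detection p-values without normalization. BeadStudio 3.0 is named in the submitters' processing notes. The authors' second deposited table holds processed signal intensities (floor 16), of which 17 columns follow their own raw column and 2, nerve pools 5 and 6, are exchanged; the raw table was used. Its intensities were background-corrected, quantile-normalized and log2-transformed with neqc (offset 16) in limma 3.58.1 under R 4.3.3. The 11816 of 21791 probes that 6 or more arrays detected (p under 0.05) were kept. The highest-mean probe represented each symbol, giving 11796 features, 8575 of them named. Groups were taken from the labels. Differences were tested with limma, with 1 coefficient per tissue over 19 arrays and Benjamini-Hochberg adjustment over all features, and gene pairs with 100000 resamples or exact permutation. The fits were tested on simulated data. Array number and signal limit the precision.

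The genes and lists were chosen with earlier results of these data known. All measured members are named. Of each other list up to 3 called genes per direction with the largest change are named, and others were picked after their values were seen. Alternatives were another offset, median scaling, no filter, the authors' values, background range as a block or within each range, array weights, sex and strain covariates, probe averaging and arrays left out. A slide block was not run, since the headers give no slide. The replicate numbers do not pair the samples: no label ties a tumour to the nerve pool of its number, same-numbered MPNST and nerve arrays, number 4 excepted, differ in strain or sex, and their deviations correlated at -0.30 to 0.21. Promoters were read with Python 3.11.15.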

Additional observations from a re-analysis of the deposited data

How the results depend on the processing

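In MPNST against nerve, 6 genes passed as reported, 2 within the high-background arrays, 2 within the low-background arrays and 3 with sex and strain as covariates. Ier2 kept its call in 15 of 16 alternatives, Zfp36 in 15, Fos in 14, Dusp1 in 13, Egr1 in 9 and Junb in 6. Of these 16, probe averaging could not change the levels of these genes, which had 1 probe each. Leaving out MPNST 1 and 10, the congenic pools or the BDIV pools was not planned in advance. Atf3 passed with median scaling (-0.10) and the authors' values (-0.97). With the replicate number as a block 5 genes passed: Jun did (0.56, limma adjusted p = 0.0123), Egr1 and Dusp1 did not. For the microtumour against nerve the count of 1 became 0 with no filter, within the low-background arrays and with sex and strain as covariates, and ranged from 0 to 1 when single arrays were left out. Against MPNST, 1 gene, Atf3 (0.32), passed with median scaling. Between background ranges the count of 3 became 0 with median scaling, 1 with the authors' values and 1 over MPNST only. The strain-matched change gave 1 call, Egr1 (2.35), with the authors' values. BDIV against BDIX nerve gave 1 call with median scaling, 0 with the authors' values, and 0 to 2 with single pools left out. The 2 correlated pairs became 0 with median scaling, the authors' values, high-background MPNST only, residuals from the background range, and without MPNST 1 and 10 (chosen after seeing the data), and 0 to 2 with single tumours left out.

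Over all features, MPNST against nerve gave 5359 calls and 2224 within the low-background arrays. The microtumour against nerve gave 359, and 547, 599 and 146 with median scaling, a background block and low-background arrays. Against MPNST it gave 321, and 740, 712, 600, 559 and 186 with median scaling, the authors' values, array weights, sex and strain covariates and low-background arrays. Background ranges gave 3108, and 2016 over MPNST. Tumour strain gave 314, 202 with median scaling and 5 with a background block. The strain-matched change gave 1519, and 787 with that block. BDIV against BDIX nerve gave 1581, 10 with the authors' values, 467 without pool 4 and 0 without pool 1, 2, 5 or 6. With the authors' values the median of all features shifted to 0.12 and 0.24 for the microtumour against nerve and MPNST, -0.20 between background ranges and 0.31 for the strain-matched change, and with median scaling to 0.11 for the microtumour against MPNST. The cause was not tested. A single microtumour, 3 low-background tumours and 2 high-background pools limit what could be detected, and Atf3 lay near background.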

Other observations

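The level of Zfp36 minus that of Dusp1 on the same array, a pair chosen after the values were seen and given without a test, did not overlap between tissues. It was at least 0.48 in MPNST, with a median of 1.29 (mean 1.28 ± 0.45, SD, n = 12), 1.22 in the microtumour and between -1.94 and -0.85 in nerve (mean -1.28 ± 0.46, SD, n = 6). Zfp36 and Dusp1 were positively correlated among the tumours (r = 0.79), while their means moved in opposite directions between the tissues. The size of the difference within an array has no unit across probes, and only its change between arrays is read here. Zfp36 was called higher and Dusp1 lower on these same arrays, so the separation adds no support to either call. The share of feature pairs that separate in this way was not computed. Of single features, 8.38% had every tumour above every pool and 8.59% every tumour below.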
